A study of Mus musculus with 6 samples.

Results

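The genes described here were 10 cell-surface tyrosine kinases that bind growth factors: the platelet-derived growth factor (PDGF) receptor beta gene Pdgfrb, the fibroblast growth factor (FGF) receptor genes Fgfr1, Fgfr2 and Fgfr3, the epidermal growth factor (EGF) receptor family genes Egfr, Erbb2, Erbb3 and Erbb4, and the insulin-like growth factor (IGF) and insulin receptor genes Igf1r and Insr. They were named by symbol and matched to the count table by Ensembl gene identifier, and all 10 of the 10 were found among the 43346 genes listed. RNA came from primary cultures of mouse fetal cerebral cortex taken at gestational day 15.5 and treated either with vehicle (DMSO, dimethyl sulfoxide) or with 1 mM 10HDA. 10HDA is trans-10-hydroxy-2-decenoic acid, a fatty acid of royal jelly, and the purpose of the comparison was to find which transcripts this compound alters in cortical cells. Each treatment had 3 libraries, 1 from each of cultures 1, 3 and 4, so each culture gave a matched pair. All 6 libraries carried the strain label Cyp19-EGFP, a transgenic line in which a reporter follows the aromatase gene, and the genotype label SRY+, whereas the study's methods for these cultures named the C57BL/6 strain. Vehicle and 10HDA libraries did not differ in any other label. The labels did not say whether the 3 cultures came from separate litters, so the spread between them may be partly technical.

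Receptor tyrosine kinases span the cell membrane. Binding of a growth factor outside the cell brings receptors together in pairs, their kinase domains phosphorylate each other, and adaptor proteins that dock on the phosphorylated tails start the RAS-ERK and PI3K-AKT cascades. In the developing nervous system PDGF receptor beta is best known from the pericytes that wrap capillaries. FGF receptors are best known from radial glia, astrocytes and the patterning of the cortex, and the EGF receptor from late progenitors and astrocytes. ERBB4 is best known from migrating interneurons and ERBB3 from Schwann cells and oligodendrocytes. The insulin and IGF receptors are known from growth and metabolism in most cell types.

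Library totals ran from 9144736 to 13367194 counts, so 3 counts corresponded to 0.221 to 0.336 CPM, the read counts scaled to a common library total. Levels below are CPM after TMM scaling, which corrects those totals for differences in library composition, and the number of libraries and counting error limit their precision. The summed level of 4 Y-linked genes was 9.07 and 9.30 CPM in the pair from culture 1 and 97.8 to 136 CPM elsewhere, and Xist was at 1032 and 1444 CPM in that pair and at 403 to 843 CPM elsewhere. The libraries labelled SRY+ in culture 1 therefore went against that label. Cultures 3 and 4 had Y-linked counts together with Xist counts, and whether they held male cells alone was not tested. The fitted change of each tested receptor is also given without culture 1, which does not leave libraries of settled sex. All 12 neuron markers examined were expressed above the filter, whereas none of 9 endothelial and none of 10 microglial markers was.

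The members were selected on results of the comparison of 10HDA with vehicle, so their values in that comparison are a description. Of the 10 receptors, 8 were tested, which required at least 10 CPM in at least 3 libraries, and Erbb2 and Erbb3 were below that filter. The edgeR quasi-likelihood fit called 1 of the 8, Pdgfrb, at an adjusted p under 0.1, beside 66 of all 10520 genes tested (0.627%). With culture as a block the fit called 3 of the 8, Pdgfrb and Fgfr2 with lower and Egfr with higher values in 10HDA, beside 945 of all tested genes (8.98%). The vehicle and 10HDA libraries did not overlap at all for 2 of the 8, Pdgfrb and Fgfr2, beside 13.4% of all tested genes, and for Erbb2 among the 2 receptors below the filter. In all 3 cultures Fgfr1, Fgfr3, Egfr and Erbb2 were higher with 10HDA and Pdgfrb and Fgfr2 were lower, and the other 4 differed in direction between cultures. Of the 8 tested receptors 4 lay above and 4 below 0, and their median on the log2 scale was -0.08 beside -0.01 over all tested genes. In bulk RNA, fewer cells of a type and less RNA per cell cannot be told apart.

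**Figure D1:**
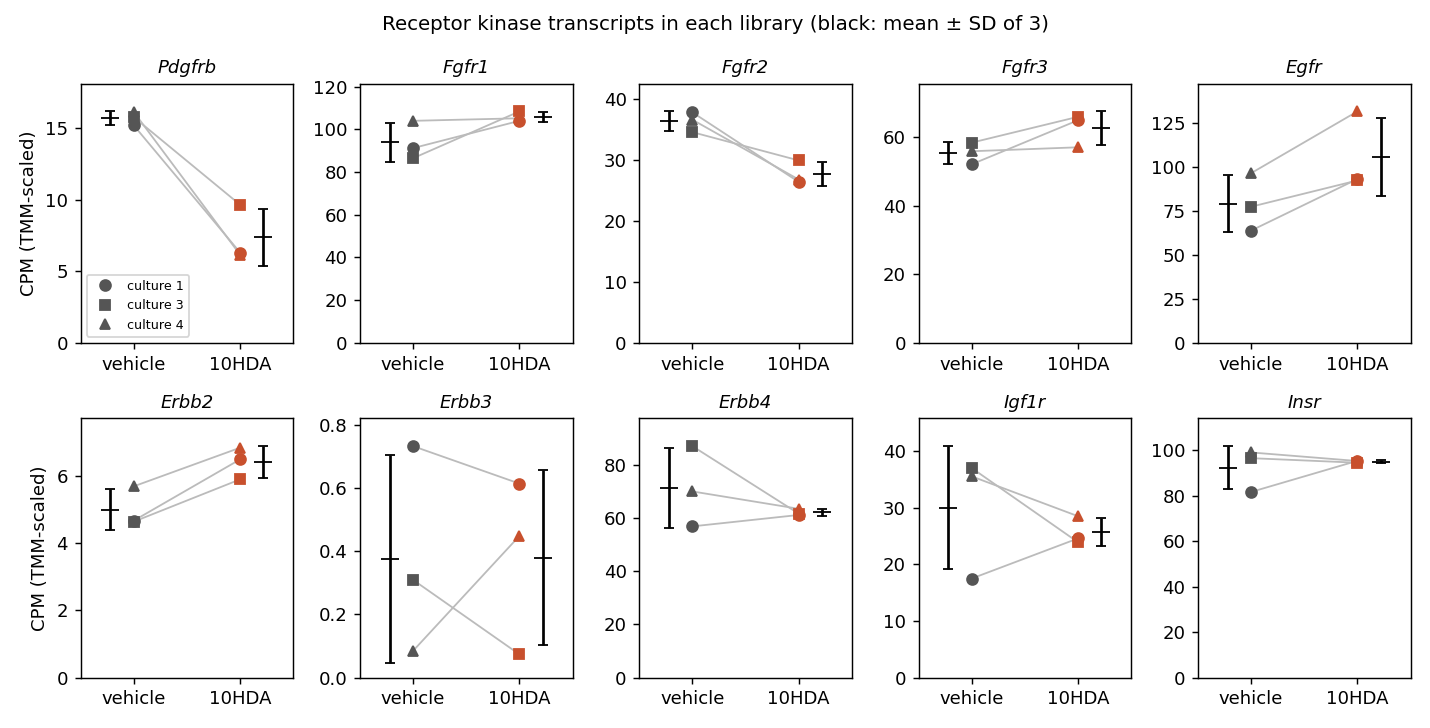
Level of each receptor transcript in CPM (vertical axes, starting at 0 and scaled to each gene) in the vehicle and 10HDA libraries. Each symbol is 1 library, its shape gives the culture, grey lines join the 2 libraries of a culture, and black bars show mean ± SD of 3. The Pdgfrb and Fgfr2 lines slope down and the Egfr and Erbb2 lines slope up in all 3 cultures, while the Igf1r and Erbb4 lines slope up in culture 1 and down in cultures 3 and 4.

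Pdgfrb (ENSMUSG00000024620.7, chr18:61045150-61085061, plus strand, GRCm38) encodes the receptor for PDGF-BB and PDGF-DD. Its level with vehicle was 15.2, 15.8 and 16.1 CPM in cultures 1, 3 and 4, from 166, 204 and 190 counts. With 10HDA it was 6.32, 9.66 and 6.17 CPM, from 72, 131 and 55 counts. The vehicle libraries were close together, each was above every 10HDA library, and culture 3 retained the highest level after treatment. The means were 15.7 ± 0.473 and 7.38 ± 1.97 CPM (SD, n = 3 each), a ratio of 0.470. The fitted log2 fold change was -1.07 ± 0.18 (SE), and the change within cultures 1, 3 and 4 was -1.24, -0.70 and -1.36. Without culture 1 the fitted value was -0.97. Pdgfrb reached 10 CPM in the 3 vehicle libraries alone, so it entered the tested set only through the group in which it was high. Its call was lost without the vehicle library of culture 3 or 4 or the 10HDA library of culture 1, and without any of the 3 cultures, while in every alternative run the log2 fold change lay between -1.33 and -0.94.

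The tested genes whose pattern over the 6 libraries was most like that of Pdgfrb were Sv2b, Pdzd2, Cxcl14, Nts and Cspg4, with root mean square differences of 0.111, 0.179, 0.182, 0.183 and 0.184 on the centred log2 CPM scale. Sv2b, a synaptic vesicle glycoprotein gene, was at 144 ± 14.1 CPM with vehicle and 69.7 ± 11.9 CPM with 10HDA. Pdzd2 had means of 64.1 and 31.2 CPM, the chemokine gene Cxcl14 16.1 and 7.68 CPM, and the neuropeptide gene Nts 15.3 and 7.80 CPM. Cspg4, which encodes the NG2 proteoglycan of pericytes and oligodendrocyte precursors, had means of 19.5 ± 2.21 and 10.3 ± 1.49 CPM (n = 3 each). Nts, like Pdgfrb, reached 10 CPM in the vehicle libraries alone and so entered the tested set only through them. The likeness of these genes is a description over 6 libraries that share the same treatment split.

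Markers of the cells that usually carry PDGF receptor beta were sparse. Of 14 pericyte and smooth muscle markers, 11 were under 1 CPM in every library, and Higd1b had no count. The pericyte genes Rgs5, Kcnj8 and Abcc9 did not exceed 0.90, 0.22 and 0.09 CPM, while Cspg4 and Notch3 were the 2 that passed the filter. The list summed to 43.9 to 53.4 CPM with vehicle and 32.6 to 41.8 CPM with 10HDA. Of 10 fibroblast and meningeal markers, 7 were under 1 CPM everywhere and Slc6a13 had no count, and the sums of 94.1 to 153 CPM with vehicle and 33.9 to 74.0 CPM with 10HDA came mainly from Pdgfra. Endothelial markers summed to 2.66 to 3.82 and 2.37 to 3.39 CPM, with Ly6c1 at 0, and microglial markers to 5.01 to 7.43 and 8.30 to 8.86 CPM, with Tmem119 at 0.

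Glial marker lists were well represented. Among 11 oligodendrocyte lineage markers, with Erbb3 set aside, 8 were tested. Of these, 3 lay above and 5 below 0, with a median log2 fold change of -0.17. Cspg4 was called, at an adjusted p of 0.043 by edgeR's quasi-likelihood test over all genes, joined with the culture block by Pdgfra and Sox10. The list summed to 366 to 472 CPM with vehicle and 278 to 396 CPM with 10HDA. Sox10, a transcription factor of that lineage, was at 12.0, 18.7 and 14.4 CPM with vehicle and 2.19, 9.59 and 4.49 CPM with 10HDA. Culture 3 was highest in both groups. Sox10 reached 10 CPM in the vehicle libraries alone, so it entered the tested set only through the group in which it was high. Among 11 astrocyte markers, with Fgfr3 set aside, 9 were tested, 1 above and 8 below 0, with a median log2 fold change of -0.66. Without the block 4 were called, all lower (Gfap, Aldh1l1, Aldoc and Clu), joined with the block by Aqp4. The sums were 1279 to 1575 and 960 to 1200 CPM. The ranges for 12 radial glia markers were 2081 to 2327 and 1789 to 2006 CPM, with no gene called without the block and 4 called with it, Fabp7, Tnc and Ptprz1 lower and Vim higher. Neuron markers summed to 9005 to 9481 and 7441 to 8451 CPM, interneuron markers, with Erbb4 set aside, to 586 to 729 and 493 to 679 CPM, and excitatory neuron markers to 1454 to 1776 and 1419 to 1634 CPM, and none of these 3 lists had a gene called without the block. With it, 5 of 12 tested neuron markers were called (Rbfox3, Snap25, Syt1, Elavl4 and Gap43). Also called were 4 of 10 tested interneuron markers (Dlx1, Dlx2, Sst and Npy) and 1 of 12 tested excitatory markers, Slc17a7. All of these were lower with 10HDA. For every marker list, the share called over all tested genes was 8.98% with the block and 0.627% without it. In the fit without the block, 3 genes per list had the smallest p values. Among radial glia genes these were Tnc, Fabp7 and Vim, at log2 fold changes of -0.44, -0.41 and 0.32. Among neuron genes they were Rbfox3, Snap25 and Gap43, at -0.42, -0.39 and -0.33. Among interneuron genes they were Dlx1, Sst and Dlx2, at -0.38, -0.33 and -0.40. Among excitatory neuron genes they were Slc17a7, Tbr1 and Bcl11b, at -0.42, -0.23 and -0.18. Of the tested radial glia genes, 2 lay above and 7 below 0, with a median log2 fold change of -0.13. For neuron genes the split was 1 and 11 (median -0.24), and for interneuron genes 1 and 9 (median -0.21). The excitatory list was evenly split, with 6 above and 6 below 0 and a median of 0.01. The part that these cell types had in the receptor values was not tested.

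The 3 FGF receptors did not share a direction. Fgfr1 (ENSMUSG00000031565.13, chr8:25513654-25575718, plus strand), the receptor of neurons and progenitors with broad ligand binding, was at 91.2, 86.5 and 104 CPM with vehicle in cultures 1, 3 and 4 and at 104, 108 and 105 CPM with 10HDA. The highest vehicle library lay within the 10HDA range, and the log2 fold change was 0.17 ± 0.10 (SE), or 0.18 without culture 1. Leaving out culture 3 gave 0.10, and leaving out culture 4 or its vehicle library alone gave 0.26 and 0.27. Fgfr3 (ENSMUSG00000054252.13, chr5:33721674-33737068, plus strand), which is prominent in radial glia and astrocytes, was at 52.0, 58.3 and 55.8 CPM with vehicle and 64.8, 65.8 and 57.0 CPM with 10HDA. Its groups overlapped as well, and the log2 fold change was 0.18 ± 0.10 (SE), or 0.13 without culture 1.

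Fgfr2 (ENSMUSG00000030849.13, chr7:130162451-133123350, minus strand), a glial and epithelial FGF receptor, was at 37.8, 34.6 and 36.6 CPM with vehicle and 26.4, 29.9 and 26.8 CPM with 10HDA. All 3 vehicle libraries lay above all 3 10HDA libraries, with culture 3 showing the smallest gap. The means were 36.3 ± 1.64 and 27.7 ± 1.93 CPM (SD, n = 3 each), a ratio of 0.763, and the log2 fold change was -0.39 ± 0.11 (SE), or -0.31 without culture 1. The annotated Fgfr2 gene includes exons that overlap Ctbp2 on the same strand, where reads cannot be told apart, and Ctbp2 itself had a log2 fold change of -0.12 in the same fit. Exons of Fgfr1, Fgfr3 and Erbb2 overlap Gm16159, G630022F23Rik and Mien1 on the opposite strand. The counting strand was not given in the sources used here, so reads at those exons may be shared. Gm16159 did not exceed 0.17 CPM and Mien1 was at 11.3 to 22.9 CPM.

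Within the EGF receptor family, Egfr (ENSMUSG00000020122.12, chr11:16752203-16918158, plus strand), the receptor for EGF and transforming growth factor alpha, was at 63.9, 77.5 and 96.6 CPM with vehicle. With 10HDA it was at 93.3, 92.5 and 132 CPM. The groups overlapped because the vehicle library of culture 4 was above the 10HDA libraries of cultures 1 and 3, yet each culture was higher after treatment, with log2 changes of 0.54, 0.25 and 0.45 in cultures 1, 3 and 4. The means were 79.3 ± 16.4 and 106 ± 22.5 CPM (SD, n = 3 each), and the log2 fold change of 0.41 had an SE of 0.17, or 0.097 with culture as a block. Without culture 1 it was 0.38, but it moved to 0.23 without the 10HDA library of culture 4 and to 0.60 without the vehicle library of that culture.

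Erbb2 (ENSMUSG00000062312.5, chr11:98412470-98437716, plus strand), which has no known ligand and pairs with its relatives, was at 4.67, 4.64 and 5.69 CPM with vehicle and 6.49, 5.90 and 6.84 CPM with 10HDA. The groups did not overlap, by a narrow margin between the vehicle library of culture 4 and the 10HDA library of culture 3. In a fit without the filter on low counts the log2 fold change was 0.36 ± 0.22 (SE). Erbb3 (ENSMUSG00000018166.8, chr10:128567523-128589652, minus strand), a neuregulin receptor with little kinase activity, had 8, 4 and 1 counts with vehicle and 7, 1 and 4 counts with 10HDA. These are 0.733, 0.309 and 0.085 CPM against 0.614, 0.0737 and 0.449 CPM, at which depth no difference of the observed size was detectable. Erbb4 (ENSMUSG00000062209.11, chr1:68032186-69108059, minus strand), the neuregulin receptor of interneurons, was at 56.9, 87.0 and 70.0 CPM with vehicle and 61.2, 61.6 and 63.5 CPM with 10HDA. The vehicle libraries were spread on either side of the tightly grouped 10HDA libraries, and the log2 fold change was -0.20 ± 0.14 (SE). That value moved with single cultures, at -0.31 without culture 1 and -0.03 without culture 3, and at -0.32 and -0.01 without the vehicle library of culture 1 or 3.

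The receptors for IGF1 and insulin had overlapping groups. Igf1r (ENSMUSG00000005533.9, chr7:67952827-68233668, plus strand) was at 17.5, 37.0 and 35.5 CPM with vehicle and 24.6, 23.9 and 28.5 CPM with 10HDA. The vehicle library of culture 1 was the lowest of all 6 and the other two vehicle libraries were the highest, so the change was 0.49 in culture 1 and -0.63 and -0.32 in cultures 3 and 4 on the log2 scale. The fitted log2 fold change was -0.23 ± 0.23 (SE), and -0.46 without culture 1. Leaving out the vehicle library of culture 1 alone gave -0.48, leaving out culture 3 gave -0.004, and leaving out the vehicle library of culture 3 or 4 gave -0.03 and -0.08. Insr (ENSMUSG00000005534.9, chr8:3122061-3279617, minus strand) was at 81.6, 96.5 and 99.0 CPM with vehicle and 95.3, 94.5 and 95.2 CPM with 10HDA, with a log2 fold change of 0.04 ± 0.10 (SE), or -0.03 without culture 1, and between -0.03 and 0.11 as single libraries or cultures were left out. For Erbb4 and Insr, as for Igf1r, culture 1 was the lowest vehicle library and the 1 culture with a higher level after treatment.

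**Figure D2:**
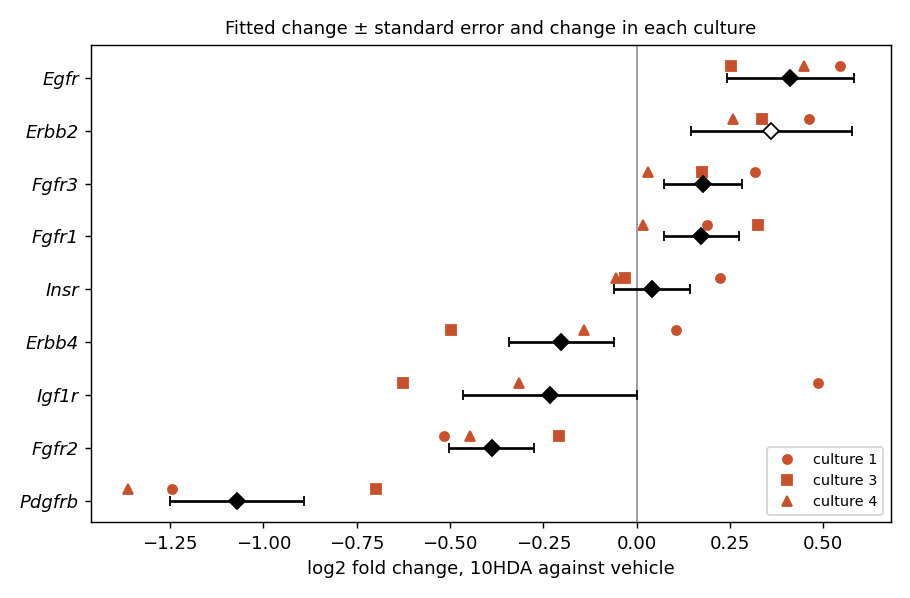
Log2 fold change of 10HDA against vehicle (horizontal axis) for the receptors other than Erbb3. Diamonds and bars give the fitted value ± SE, the open diamond marks Erbb2, fitted without the filter on low counts, and coloured symbols give the change within each culture. Pdgfrb at -1.07 stands lowest and Egfr at 0.41 highest, and the 3 cultures of Igf1r lie on both sides of 0.

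Differences between cultures did not enter the choice of members and were tested. In the edgeR quasi-likelihood test of culture with treatment as a covariate, 2 of the 8 tested receptors, Egfr and Igf1r, passed an adjusted p of 0.1, beside 1045 of all 10520 tested genes (9.93%). Egfr had an adjusted p of 0.012 and averaged 78.6, 85.0 and 114 CPM over both treatments in cultures 1, 3 and 4, so culture 4 was the high one. Igf1r had an adjusted p of 0.084 and averaged 21.0, 30.4 and 32.0 CPM, so culture 1 was the low one on average. Among the 10HDA libraries, however, culture 1 at 24.6 CPM lay above culture 3 at 23.9 CPM. With culture 1 left out, Egfr still differed between cultures 3 and 4, with an edgeR adjusted p of 0.029 and a log2 difference of 0.40, whereas Igf1r had an adjusted p of 0.81. The Egfr call was lost without the vehicle library of culture 4 (adjusted p = 0.286) or its 10HDA library (adjusted p = 0.491), and the Igf1r call without the vehicle library of culture 1 (adjusted p = 0.983) or of culture 4 (adjusted p = 0.132). DESeq2 gave an adjusted p of 0.029 for Egfr and 0.42 for Igf1r. For the other 6 the edgeR adjusted p was between 0.295 for Erbb4 and 0.983 for Fgfr2, and Pdgfrb was at 0.509. Over both treatments Pdgfrb averaged 10.8, 12.7 and 11.2 CPM in the 3 cultures.

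Promoter sequence is shown for Egfr and Igf1r, the receptors that differed between cultures, and for Fgfr2, whose treatment groups did not overlap, because these 3 contrast in base composition. Each line gives the 250 bases before the RefSeq transcript start in GRCm38.p6, written 5′ to 3′ on the strand of the gene, and capitals mark the GC box letters GGGCGG, searched on both strands.
Egfr, chr11:16751953-16752202, plus strand: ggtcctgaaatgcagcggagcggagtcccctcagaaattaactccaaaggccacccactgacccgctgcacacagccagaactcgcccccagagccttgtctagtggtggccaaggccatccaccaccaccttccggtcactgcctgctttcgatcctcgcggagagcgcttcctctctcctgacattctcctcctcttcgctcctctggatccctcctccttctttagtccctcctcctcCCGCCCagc
Igf1r, chr7:67952007-67952256, plus strand: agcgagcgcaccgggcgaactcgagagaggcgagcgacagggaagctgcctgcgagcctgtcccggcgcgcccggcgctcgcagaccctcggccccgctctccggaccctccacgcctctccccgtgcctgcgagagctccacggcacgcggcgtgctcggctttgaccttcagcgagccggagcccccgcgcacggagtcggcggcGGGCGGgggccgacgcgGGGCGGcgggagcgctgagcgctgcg
Fgfr2, chr7:130266809-130267058, minus strand: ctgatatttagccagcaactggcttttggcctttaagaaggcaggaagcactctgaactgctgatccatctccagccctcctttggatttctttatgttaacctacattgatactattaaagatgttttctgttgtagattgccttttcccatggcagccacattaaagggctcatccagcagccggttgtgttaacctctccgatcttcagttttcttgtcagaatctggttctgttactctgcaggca

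RefSeq entries matched 6 of the 10 receptors, Egfr, Erbb2, Erbb4, Fgfr2, Fgfr3 and Igf1r, with 7 promoters between them because Fgfr3 had 2 starts. The GC content of these windows ran from 44% for Fgfr2, just under the lower quartile of 45.2% over all 32851 mouse promoters, to 77.6% for Igf1r, above the upper quartile of 61.2%. Egfr was at 60.8%. A GC box was found once upstream of Egfr and 2 times upstream of Igf1r, and 4 of the 7 promoters held at least 1, beside 32.7% of all promoters. None of the 7 held TATAAA, beside 12.4% of all promoters, and none held the full palindromic estrogen response element, searched with any 3 bases between its arms, beside 0.0639%. These matches describe letters in a window and not binding.

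Levels were compared between receptors as CPM per kilobase of the gene length given in the count table. With vehicle the order of the means was Fgfr1 at 11.6, Insr at 9.59, Fgfr3 at 8.02, Egfr at 7.005, Igf1r at 6.68, Erbb4 at 5.77, Fgfr2 at 5.02, Pdgfrb at 2.87, Erbb2 at 0.960 and Erbb3 at 0.062 CPM per kilobase. Neighbours from Fgfr3 down to Fgfr2 overlapped in their libraries and were not separated beyond their spread. The libraries of Fgfr1, Insr, Fgfr2, Pdgfrb and Erbb2 did not overlap those of the next receptor down. For Insr the margin was narrow, with its lowest library at 8.47 and the highest of Fgfr3 at 8.44 CPM per kilobase. With 10HDA, Egfr at 9.34 moved above Fgfr3 at 9.06 CPM per kilobase, but the libraries of Insr, Egfr and Fgfr3 overlapped as neighbours, so this exchange was within their spread. Pdgfrb kept its place at 1.35 CPM per kilobase, but its libraries, at 1.13 to 1.76, now overlapped those of Erbb2, at 1.13 to 1.31 CPM per kilobase.

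**Figure D3:**
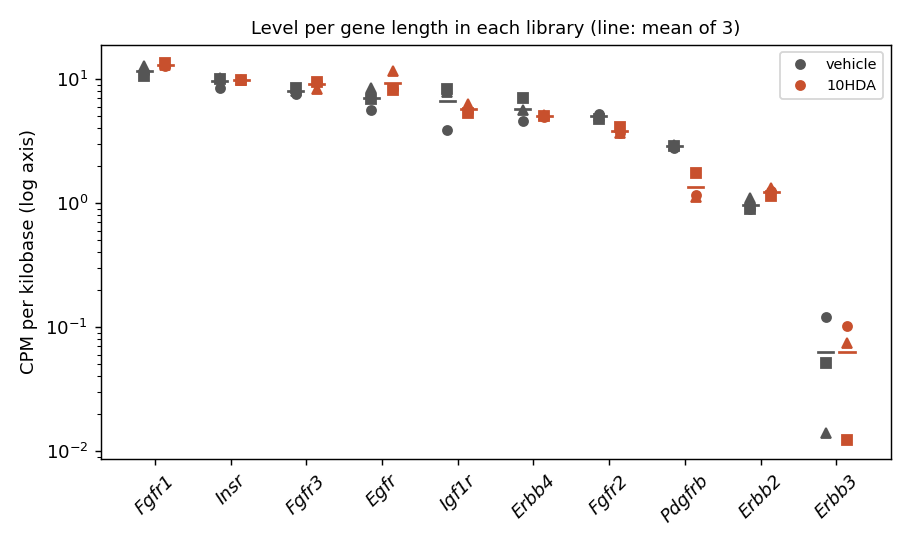
Level of each receptor per kilobase of gene length (vertical log axis, CPM per kilobase), in order of the vehicle mean. Each symbol is 1 library, circles, squares and triangles are cultures 1, 3 and 4, grey is vehicle, orange is 10HDA and lines are means of 3. Pdgfrb stands at 2.87 with vehicle and at 1.35 with 10HDA, where it overlaps Erbb2, while Erbb3 stays below 0.13 in every library.

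The ligands and other pathway genes were taken from lists by role, which were set with earlier results of these data known. Of 196 listed genes, 126 were tested. The edgeR fit called 2 of them (1.59%), Cspg4 and Kit, both lower with 10HDA, beside 0.627% of all tested genes. With culture as a block 15 were called (11.9%), 5 higher and 10 lower, beside 8.98%. Of the 126, 46 lay above and 80 below 0 in log2 fold change, with a median of -0.04 beside -0.01 over all tested genes, 52.1% of which lay below 0. The 2 calls were lost without any of the 3 cultures, and also without the vehicle library of culture 3 or 4 or the 10HDA library of culture 1, and Kit was further lost without the 10HDA library of culture 3.

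Ligand genes for these receptors were mostly low and none was called without the block. Among PDGF ligands only Pdgfa was tested, at 43.0 ± 4.50 CPM with vehicle and 37.2 ± 4.50 CPM with 10HDA, with a log2 fold change of -0.21 ± 0.13 and an edgeR adjusted p of 0.592. Pdgfb, which encodes the main ligand of PDGF receptor beta, averaged 7.75 and 5.40 CPM and was under the filter. Of 22 FGF genes 5 were tested, 1 above and 4 below 0. Fgf9, a secreted factor that binds Fgfr2 and Fgfr3 products, averaged 9.07 ± 0.507 and 12.9 ± 1.56 CPM. Its log2 fold change was 0.50 ± 0.15, with an edgeR adjusted p of 0.279 and, with the culture block, 0.047. Fgf9 reached 10 CPM in the 10HDA libraries alone, so it entered the tested set only through the group in which it was high. The other 4 were Fgf11, Fgf12, Fgf13 and Fgf14, whose products stay inside the cell and bind sodium channels, with log2 fold changes of -0.24 for Fgf13 and -0.18 for Fgf12.

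Of 11 EGF and neuregulin genes 3 were tested and all 3 lay below 0, led by Tgfa at -0.25 ± 0.12 (edgeR adjusted p = 0.504), with Nrg3 at -0.09 and Hbegf at -0.03. In the insulin and IGF list 4 of 11 genes were tested, all of them binding proteins that hold IGFs in the extracellular fluid, while Igf1 averaged 4.17 and 3.21 CPM and was under the filter. Igfbp3 was at 59.5 ± 7.46 and 46.9 ± 2.24 CPM and Igfbp5 at 178 ± 32.9 and 133 ± 16.9 CPM, with log2 fold changes of -0.34 and -0.42, whereas Igfbp2 was at 63.4 ± 13.6 and 81.8 ± 5.38 CPM, with a log2 fold change of 0.37. These 3 passed an adjusted p of 0.1 with the culture block and not without it, at edgeR adjusted p values of 0.354, 0.359 and 0.446.

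Of 12 coreceptors and decoys 10 were tested and Cspg4 was called, with a log2 fold change of -0.92 ± 0.16 and an edgeR adjusted p of 0.043. Its product binds PDGF-AA and FGF2 and presents them to their receptors. The syndecan gene Sdc3 was called with the block alone and averaged 1026 ± 78.6 and 821 ± 43.9 CPM.

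The other receptor tyrosine kinases were the closest comparison. Of 48 listed, 25 were tested, 9 above and 16 below 0, with a median log2 fold change of -0.10 against -0.08 for the 8 tested receptors described here. Kit, the stem cell factor receptor, fell from 54.6 ± 3.58 to 35.8 ± 2.73 CPM (n = 3 each), with a log2 fold change of -0.61 ± 0.11 and an edgeR adjusted p of 0.049. Pdgfra, the sister receptor of Pdgfrb and a marker of oligodendrocyte precursors, was at 81.1, 142 and 105 CPM with vehicle and 26.6, 67.5 and 48.0 CPM with 10HDA. Its groups did not overlap and culture 3 was the highest in both, but the spread between cultures was wide and the log2 fold change of -1.21 ± 0.28 had an edgeR adjusted p of 0.148, and passed with the culture block. Met, the hepatocyte growth factor receptor, had a log2 fold change of -0.46 (adjusted p = 0.226, edgeR) and the collagen receptor gene Ddr2 one of 0.74 (adjusted p = 0.209, edgeR), and both passed with the block alone. Whether the change in Pdgfrb differed from that in these kinases was not tested.

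Downstream of the receptors, the shifts were small. Median log2 fold changes were -0.02 for the 23 adaptors tested, -0.06 for the 14 inhibitors tested and -0.03 for the 30 RAS-ERK and PI3K-AKT core genes tested, and no gene of these lists was called without the block. At an edgeR adjusted p under 0.1 with the block, the adaptor Shc3, the adaptor Grb14 that inhibits the insulin receptor, and Mapk3, which encodes ERK1, were lower, at -0.56, -0.38 and -0.33, and Rheb, an activator of mTOR complex 1, was higher, at 0.30. Without the block their edgeR adjusted p values were 0.530, 0.374, 0.392 and 0.403. The adaptors Crk and Ptpn11, the inhibitors Cbl and Ptprj and the transcription factor Foxo1 passed in neither fit, with log2 fold changes of 0.15, 0.13, -0.40, -0.15 and -0.23. Of 11 tested feedback targets of the ERK cascade, 8 lay above 0, with a median of 0.10. Etv5, an ERK-induced transcription factor gene, averaged 50.7 ± 3.70 and 64.9 ± 4.81 CPM, with a log2 fold change of 0.35 ± 0.11 and an edgeR adjusted p of 0.296, or 0.037 with the block. The ERK inhibitor genes Spry4 and Spred1 had log2 fold changes of 0.32 and 0.24 and passed in neither fit.

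**Figure D4:**
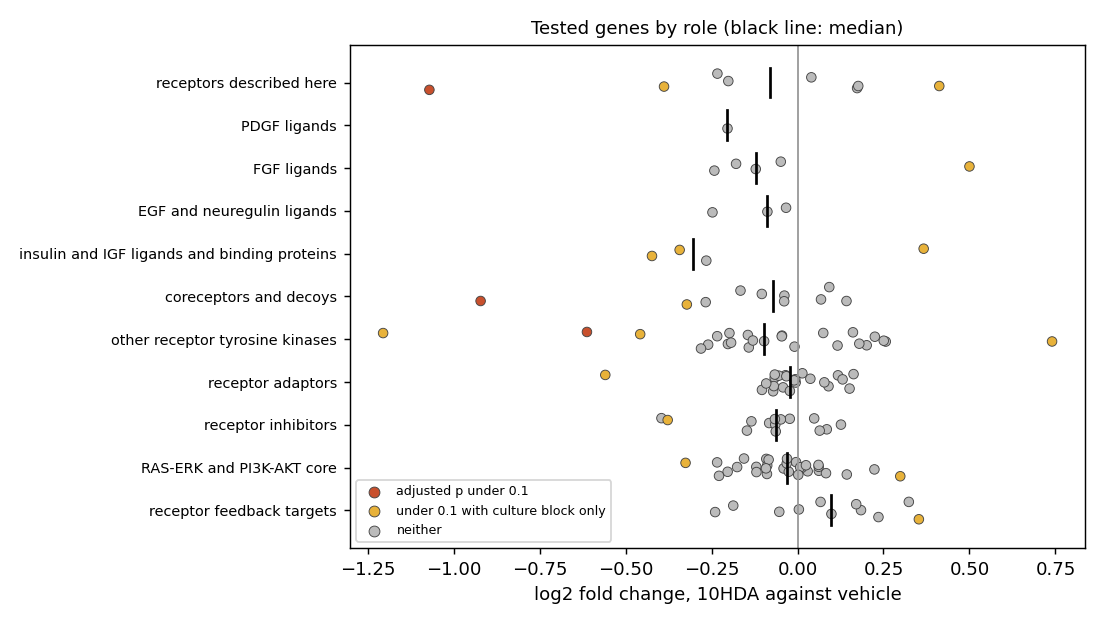
Log2 fold change of 10HDA against vehicle (horizontal axis) for every tested gene of each role list, 1 point per gene, with the list median as a black line. Red points had an adjusted p under 0.1, yellow points only with culture as a block, and grey points in neither fit. Pdgfrb at -1.07, Cspg4 at -0.92 and Kit at -0.61 are the red points, and most points lie between -0.3 and 0.3.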

How the data were processed

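Cultures from fetal mouse cortex were sequenced by the authors as 50 bp single-end reads from strand-specific libraries, with 3 libraries per treatment. Untrimmed reads were mapped by the authors with Subjunc (Subread 1.4.4; mm10) and assigned to genes with featureCounts, and the authors deposited raw counts for 43346 genes with gene lengths. Per the study's methods, their own test used edgeR 3.4.2 in R 3.0.2. Read quality was checked with FastQC per the labels. The strand setting of the counting and the length of treatment were not given in the sources used here.

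From the counts, the 10520 genes that reached 10 CPM in 3 or more libraries were scaled by TMM and fitted with edgeR 4.0.16 (quasi-likelihood) in R 4.3.3, with 10HDA against vehicle, no block and Benjamini-Hochberg adjusted p under 0.1. The filter, TMM, edgeR and the false discovery rate follow the study's methods, which name no block and not which edgeR test was run. The spread was estimated across all genes, and the common biological coefficient of variation was 0.116. Cultures were tested with treatment as a covariate. The culture number paired libraries in the labels, and deviations from group means correlated at 0.368, 0.235 and 0.616 within cultures 1, 3 and 4 against -0.449 to 0.183 between different cultures, so the fit with a culture block (coefficient 0.0849) is given beside the results it changed. Since 1 library per culture and treatment was available, whether cultures responded differently was not testable. Pattern likeness used a prior count of 2, and a prior count of 0.5 gave the same 5 genes. DESeq2 1.42.0, limma-voom (limma 3.58.1), other scalings and filters, a threshold of 0.05 and left-out libraries were alternatives. Leave-one-out fits used the same 10520 genes. The fit without a block and the test of cultures were also run on simulated counts. The simulated spread was set below the 0.116 of the reported fit, and the treatment simulation held no culture differences. The fit with the block was not simulated.

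The members, lists and tests were chosen with earlier results of these data known. Text names all 10 members, called genes of each list or otherwise up to 3 with the smallest p, and the 5 genes most like Pdgfrb. The untested genes, Fgf11, Fgf14, Sdc3, Pdgfra, Met, Ddr2 and Sox10 were named after their values were seen. Members were removed from the marker lists. Gene positions and overlaps came from the GENCODE annotation of GRCm38 and promoters from RefSeq GRCm38.p6. Symbols were matched for 98% of gene identifiers. No protein sequence was used here.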

Additional observations from a re-analysis of the deposited data

How the results depend on the processing

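The Pdgfrb log2 fold change lay between -1.33 and -0.938 over 18 alternatives, -1.33 arising without culture 3 or its 10HDA library. Over all genes, the 66 genes called became 636 without a filter on low counts, 170 by DESeq2, 43 at a threshold of 0.05, 945 with the culture block, 1347 with that block and no filter (chosen after seeing the data), and 3, 0 and 36 without culture 1, 3 and 4. They ranged from 0 to 350 without 1 library, falling to 2 without the vehicle library of culture 3, 7 without that of culture 4 and 0 without the 10HDA library of culture 1. At an unadjusted p under 0.05 edgeR found 725 genes without culture 3 and 469 without that last library, against 1059 in all. Members called were 2 without the filter (Pdgfrb and Egfr), 3 with the block, 3 with the block and no filter, and 0, 0 and 0 without each culture, where 2, 2 and 4 were under an unadjusted 0.05 in edgeR, and 0 to 1 without 1 library. Pathway genes called were 8 without the filter, 4 by DESeq2, 15 with the block, 19 with the block and no filter, 0 without each culture (13, 15 and 12 under an unadjusted 0.05 in edgeR) and 0 to 4 without 1 library. Genes differing between cultures numbered 325 by DESeq2, 604 at 0.05 and 156 to 2624 without 1 library, against 1045. Members differing between cultures numbered 1 under upper quartile scaling, under the filterByExpr filter, by DESeq2, at 0.05 and without culture 1 (added after seeing the data), where Egfr remained in each, and 0 to 3 without 1 library. Leave-outs that leave fewer libraries have less power by construction. Even so, the genes called by 10HDA rose to 106 without the vehicle library of culture 1 and to 350 without the 10HDA library of culture 4. The causes of these moves were not tested. Among the fitted members Insr alone, near 0, changed sign, in 2 alternatives. Erbb3, at 1 to 8 counts, is limited by depth.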
